A study of Mus musculus with 5 samples.

Results

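The genes described here are 9 genes of the Hedgehog pathway, read in stem cells of the mouse hair follicle: the ligand gene Shh, the receptor gene Ptch1, the ligand-binding inhibitor gene Hhip, the co-receptor genes Boc, Cdon and Gas1, and the transcription factor genes Gli1, Gli2 and Gli3. They were picked by symbol, and each matched 1 of the 55357 genes in the deposited table. The PRC1 i2KO group (n = 3) carried K15-CrePR1 together with the Ring1a-/- and Ring1bflox/flox alleles. The Control group (n = 2) carried the same Ring1a-/- and Ring1bflox/flox alleles without the Cre. By its label the Ring1a-/- genotype is thus shared by both groups, and both received 1% RU-486 on the skin for 10 days from postnatal day 50. Back skin was taken 15 days after that treatment, at postnatal day 75, and the sort kept cells with EpCAM, CD34 and high α6-integrin but without Sca1, the surface profile of bulge stem cells. CrePR1 is a Cre recombinase fused to a progesterone receptor domain, which RU-486 switches on, and the keratin 15 promoter that drives it is active in bulge cells and in some other basal cells of the skin.

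Hedgehog ligands bind Patched receptors at the cell surface, which relieves the block that Patched holds on the membrane protein Smoothened and lets Gli factors act in the nucleus. Gli2 is the main activator of this response, Gli3 is mostly cut to a repressor, and Gli1, Ptch1 and Hhip are themselves switched on by it. Boc, Cdon and Gas1 bind the ligand and help present it to Patched. In skin, Shh is made by the activated hair germ and by matrix cells of the growing follicle, and excess pathway activity leads to basal cell carcinoma. PRC1, whose catalytic subunits are encoded by Ring1 (Ring1a) and Rnf2 (Ring1b), places ubiquitin on histone H2A and is brought to chromatin in part through unmethylated CpG-rich promoters.

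The libraries held 9675996 to 21102727 estimated reads in PRC1 i2KO, and 8270419 and 32463173 in Control. The Control libraries are numbered 1 and 3, as in their titles. No label says that libraries came from separate animals, and a p-value therefore reflects spread among these libraries that may be purely technical. Rnf2 had 46.6 to 50.2 CPM (read counts scaled to a common library size) in PRC1 i2KO, against 57.7 and 67.9 CPM in Control (edgeR adjusted p = 0.0363, a call lost under 7 of 14 alternatives, with the highest value of 0.251 without Control replicate 1). Ring1 had 19.6 to 28.6 CPM in PRC1 i2KO, against 27.5 and 30.3 CPM in Control (adjusted p = 0.36). Both genes thus had reads in every library, and whole-gene reads do not check the deletion of an exon. Cd34, the gene of the sorting marker, had 11.0, 12.3 and 37.2 CPM in PRC1 i2KO, against 1548 and 1697 CPM in Control, so the RNA of the PRC1 i2KO libraries did not carry the marker they were sorted on at the level of Control. Among all genes tested, 18.8% were called higher and 15.1% lower by edgeR at an adjusted p under 0.05. Of 10 bulge genes 8 were called lower and none higher, with 0 higher also by DESeq2 and at an unadjusted p under 0.05, and their summed level ran from 7481 to 11113 CPM in PRC1 i2KO, against 26393 to 29332 CPM in Control. All 14 genes of the G2 and M phases were called higher, as were 8 of 9 upper follicle and all 9 sebaceous gland markers. Their summed levels were 445 to 667, 8131 to 8387 and 2662 to 3359 CPM in PRC1 i2KO, against 26.9 to 52.7, 760 to 992 and 242 to 253 CPM in Control. The part of these shifts in the results below was not tested, and in bulk RNA fewer cells of a type and less RNA per cell cannot be told apart.

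Promoter sequence is shown for 3 of the genes that changed, 1 that rose and 2 that fell. PRC1, the complex targeted here, is brought to chromatin in part through CpG-rich promoters. RNA libraries do not show whether PRC1 was bound at these windows. RefSeq windows on build GRCm38.p6, which is not the build named for these libraries (mm39), matched 6 of the 9 genes. Each sequence is the 250 bases before the annotated start on the gene's strand, with every CpG in capitals. The Ptch1 window is chr13:63565736-63565985 (minus strand), the Gli3 window chr13:15463473-15463722 (plus strand) and the Gas1 window chr13:60177536-60177785 (minus strand).
Ptch1: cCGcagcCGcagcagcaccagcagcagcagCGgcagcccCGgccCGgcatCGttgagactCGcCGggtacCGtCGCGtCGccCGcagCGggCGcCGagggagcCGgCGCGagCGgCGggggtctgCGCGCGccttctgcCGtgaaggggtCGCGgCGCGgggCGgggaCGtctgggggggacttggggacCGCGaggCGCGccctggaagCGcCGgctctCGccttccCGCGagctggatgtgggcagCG
Gli3: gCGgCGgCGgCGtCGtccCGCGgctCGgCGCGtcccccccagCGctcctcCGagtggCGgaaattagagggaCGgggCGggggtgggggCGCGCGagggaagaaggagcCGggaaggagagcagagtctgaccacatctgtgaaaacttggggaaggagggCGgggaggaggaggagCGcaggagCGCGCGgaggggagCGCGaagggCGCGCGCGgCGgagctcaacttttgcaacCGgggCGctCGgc
Gas1: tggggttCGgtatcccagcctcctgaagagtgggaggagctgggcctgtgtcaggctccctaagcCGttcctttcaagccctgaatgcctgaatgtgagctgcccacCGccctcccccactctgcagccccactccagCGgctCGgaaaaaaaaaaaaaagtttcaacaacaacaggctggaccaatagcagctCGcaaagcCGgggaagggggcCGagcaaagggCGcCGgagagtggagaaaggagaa
The Ptch1 window held 41 CpG and the Gli3 window 34, more than 98.9% and 96.5% of the 32851 windows in the table, whose median was 6. The Gas1 window held 10 CpG, more than 62.2% of windows. The windows of Hhip and Gli2, which were not called, held 28 and 22 CpG. The Cdon window held 1, but it begins at a RefSeq start that lies 30948 bases inside the gene as GENCODE M21 annotates it, so it is not the promoter at the gene's outer start. The Ptch1 start used here likewise lies 7863 bases inside the outermost annotated start. A core of the Gli binding sequence, ACCACCC, was searched on both strands, and was found in 1 of the 6 windows (Gli2) and in 3.92% of all windows.

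Of the 9 genes, 2 rose (Shh and Ptch1), 4 fell (Gli3, Boc, Cdon and Gas1) and 3 did not pass the test (Gli1, Gli2 and Hhip) in the quasi-likelihood test of edgeR, with calls made under an adjusted p of 0.05. Shh is in these counts although it passed the filter on low counts through its PRC1 i2KO libraries alone. Over all 15665 genes tested, 18.8% were called higher and 15.1% lower, 33.9% in all. DESeq2 called 3 of the 9 higher, with Gli1 added, and 4 lower, against 17.6% and 13.0% of all genes it tested (30.6% in all). The groups did not overlap for 7 of the 9 genes, 3 with every PRC1 i2KO library above both controls and 4 with every one below, against 30.0% and 29.4% of all tested genes (59.5% in all). The median log2 fold change of the 9 genes was -0.46, beside -0.01 over all genes tested.

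**Figure D1:**
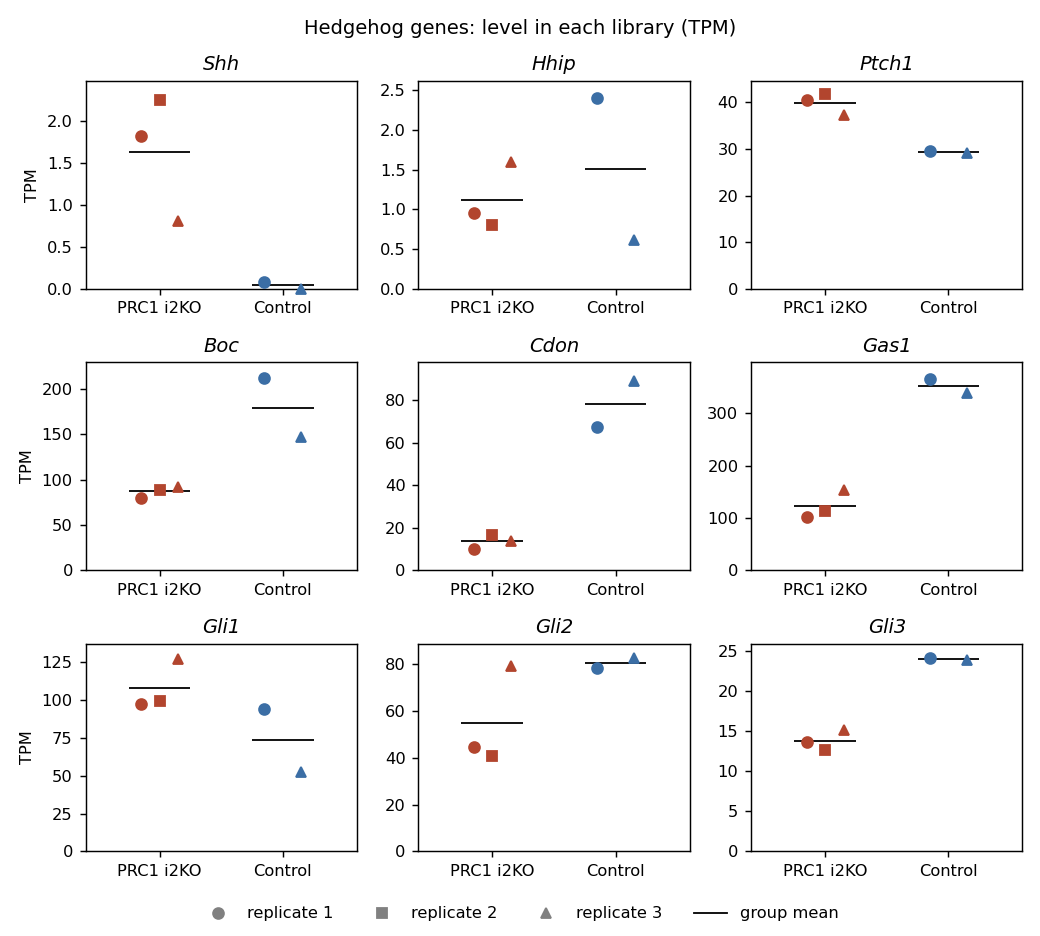
Level of each of the 9 Hedgehog genes in TPM (transcript abundance corrected for length, linear axes from 0) in 3 PRC1 i2KO libraries and 2 Control libraries, with a point for each library and a line at the group mean. Shh, Ptch1 and Gli1 lie higher in every PRC1 i2KO library, and Boc, Cdon, Gas1 and Gli3 lower, while Gli2 and Hhip overlap.

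Shh, the ligand gene, was nearly without reads in Control and had reads in every PRC1 i2KO library. It had 31, 83 and 26 reads in PRC1 i2KO replicates 1, 2 and 3, against 1 and 0 reads in Control replicates 1 and 3. These are 3.21, 3.9 and 1.37 CPM in PRC1 i2KO, against 0.123 and 0 CPM in Control, where the 0 reads of replicate 3 allow up to 0.0933 CPM (3 reads). The groups did not overlap, and PRC1 i2KO replicate 3 was the lowest of its group. Summed over libraries, 140 reads in PRC1 i2KO against 1 in Control gave a ratio of 113 after scaling for depth, with an exact 95% binomial interval from 19.9 to 4494 that covers counting error only. The fitted change was called (edgeR adjusted p = 0.00329), though Shh passed the filter on low counts through its PRC1 i2KO libraries alone and so had to differ. Set against Control replicate 3 alone, with its 0 reads taken as 3, the ratio was 30.1, which takes no account of error in the PRC1 i2KO reads. Against Control replicate 1 alone, a comparison added after the data were seen, the ratio was 22.8 (interval from 4.02 to 906). These ratios describe the same reads and are no further support for a difference. The level of Shh stayed low even so, at 1.62 ± 0.735 TPM in PRC1 i2KO (SD, n = 3), above 17.1% of tested genes.

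The other ligand genes had few reads in both groups. Dhh, the ligand gene of testis and nerve sheath, averaged 0.267 CPM in PRC1 i2KO and 0.634 CPM in Control (adjusted p = 0.442), and Ihh, the ligand gene of cartilage and gut, stood at 0.094 and 0.293 CPM in the same groups and was not tested for want of reads. Of 8 genes that encode these ligands and the proteins that acylate and release Hedgehog, 5 were tested, 2 rose and none fell (0 lower by DESeq2, and 1 lower at an unadjusted p under 0.05). Beside this and the marker counts below, 18.8% of all genes tested were called higher and 15.1% lower. Scube2, a secreted protein that helps release the lipid-modified ligand, had 64.3, 66.2 and 57.2 CPM in PRC1 i2KO, against 45.2 and 42.6 CPM in Control (log2 fold change 0.51, SE 0.12, edgeR adjusted p = 0.00886), and the call was lost without Control replicate 3 (0.0758) and on all 3 TPM settings (log2 fold changes of 0.26 to 0.27, limma adjusted p of 0.211 to 0.292). Its relative Scube3 had 13.7, 12.8 and 14.6 CPM in PRC1 i2KO, against 1.48 and 0.0622 CPM in Control (edgeR adjusted p = 0.0122), and its log2 fold change of 4.86 became 7.65 with Control replicate 1 dropped and 3.21 with Control replicate 3 dropped. Scube3 passed the filter on low counts through its PRC1 i2KO libraries alone. Markers of the hair germ and matrix, where Shh is made in a growing follicle, were read beside these. Of 9 tested, 3 rose (Lef1, Wnt10b and Foxn1), 1 fell (Hoxc13) and 5 did not pass, while DESeq2 called 4 higher and 0 lower (1 lower at an unadjusted p under 0.05 in edgeR), with a summed level of 323 to 443 CPM in PRC1 i2KO and 285 to 319 CPM in Control, and Padi3 had 0 reads in all libraries. Lef1, a transcription factor of WNT signalling, had 40.9, 49.1 and 67.6 CPM in PRC1 i2KO, against 9.41 and 6.49 CPM in Control. It was highest in PRC1 i2KO replicate 3, where Shh was lowest. Foxn1, with 2.9, 3.15 and 2 CPM in PRC1 i2KO, was lowest in that library. Wnt10b had 20.9, 26.3 and 26.3 CPM in PRC1 i2KO, against 0.985 and 0 CPM in Control. Foxn1 had 0.369 and 0.187 CPM in Control. Hoxc13 had 23.5, 18.6 and 24.7 CPM in PRC1 i2KO, against 30.4 and 32.6 CPM in Control. Of those that did not pass, Dlx3 had 4.77, 7.05 and 25.3 CPM in PRC1 i2KO, against 27.6 and 43.4 CPM in Control. Msx2 averaged lower too (8.51 CPM in PRC1 i2KO, 13.1 CPM in Control). Cdh3 (243 and 211 CPM) and Bmp4 (1.81 and 0.246 CPM) averaged higher in PRC1 i2KO. Wnt10b, Foxn1 and Bmp4 passed the filter on low counts through their PRC1 i2KO libraries alone. Merkel cells are another epithelial lineage that depends on Hedgehog signals. Of their markers, Krt20 and Isl1 had 0 reads in all libraries and Atoh1 had at most 0.156 CPM. Krt8 did not pass (edgeR adjusted p = 0.446), with 1.24, 2.35 and 2.68 CPM in PRC1 i2KO, against 1.97 and 0.746 CPM in Control. Krt18, also a keratin of simple epithelia, was called higher (edgeR adjusted p = 0.00347). It had 2.69, 1.41 and 1.58 CPM in PRC1 i2KO and 0 reads in both Control libraries. Krt18 likewise passed the filter on low counts through its PRC1 i2KO libraries alone and so had to differ.

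Ptch1, which encodes the receptor and is also a target of the pathway, rose. It had 191, 193 and 167 CPM in PRC1 i2KO replicates 1, 2 and 3, against 110 and 96 CPM in Control replicates 1 and 3. The lowest PRC1 i2KO library lay well above the higher control. The log2 fold change was 0.84 (SE 0.12, edgeR adjusted p = 0.000447), and ranged from 0.74 to 0.94 when single libraries were dropped. Per length the difference was smaller, with 40.39, 41.79 and 37.29 TPM in PRC1 i2KO, against 29.49 and 29.21 TPM in Control, a ratio of means of 1.36, and the call was lost on that scale (limma on log2(TPM + 1), log2 fold change 0.43, adjusted p = 0.0577), on which 11.8% of all genes were called higher and 14.4% lower (26.2% in all). On TPM the median of all genes moved by -0.14 on the log2 scale. The number of reads per unit of TPM, which follows the length of the isoforms that the authors' estimate assigns, was also higher for Ptch1 in PRC1 i2KO. Relative to the median gene of each library it stood at 0.10, 0.09 and 0.09 (log2) in PRC1 i2KO, against -0.05 and -0.23 in Control, a difference of 0.23 that 14.6% of 11998 genes exceeded in size. The same difference was -0.34 for Hhip, which 7.39% of genes exceeded in size, -0.14 for Cdon, -0.07 for Gli3, -0.02 for Gli1 and Gli2 and 0.00 for Boc and Gas1.

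Smo, which encodes the Smoothened protein that Patched restrains, averaged 149 CPM in PRC1 i2KO and 164 CPM in Control and did not pass (log2 fold change -0.14, adjusted p = 0.409). Of 10 genes of ligand reception outside the 9, 9 were tested, 2 rose, 2 fell and 5 did not pass. These counts lie near the shares over all genes tested, 18.8% called higher and 15.1% lower. Gpc4, a glypican of the cell surface, rose (0.56, edgeR adjusted p = 0.00772), a call that was lost without Control replicate 3 (0.0831) and on TPM (0.0791). Gpc6, another glypican, had 11.2, 11.2 and 17.5 CPM in PRC1 i2KO, against 27.0 and 25.3 CPM in Control (-0.96, edgeR adjusted p = 0.00902). Mosmo, a protein that lowers Smoothened at the cell surface, fell as well (-0.71, edgeR adjusted p = 0.0102, and 0.15 without Control replicate 3).

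Hhip, which encodes a membrane protein that traps the ligand and is a target of the pathway, did not change detectably. It had 29, 100 and 131 reads in PRC1 i2KO, against 88 and 104 reads in Control. In CPM these were 3.01, 4.7 and 6.9 in PRC1 i2KO, against 10.8 and 3.23 in Control, so that 2 of the 3 PRC1 i2KO libraries lay between the controls and 1 below both. It did not pass (log2 fold change -0.46, SE 0.55, edgeR adjusted p = 0.57), and the value became 0.60 without Control replicate 1 and -1.13 without Control replicate 3.

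The 3 co-receptor genes all fell. Cdon, an immunoglobulin-domain co-receptor, had 49.2, 56.7 and 61.2 CPM in PRC1 i2KO, against 274 and 369 CPM in Control. The highest PRC1 i2KO library stood far below the lower control, and the change was the largest fall of the 9 (log2 fold change -2.53, SE 0.14, edgeR adjusted p = 3.21e-06). Gas1, a co-receptor anchored to the membrane by a lipid, had 186, 206 and 268 CPM in PRC1 i2KO, against 587 and 544 CPM in Control (-1.36, SE 0.15, edgeR adjusted p = 0.000134). Boc, the closest relative of Cdon, had 228, 250 and 249 CPM in PRC1 i2KO, against 525 and 364 CPM in Control. Its fall was smaller (-0.87, SE 0.15, edgeR adjusted p = 0.00164) and depended on which control was kept, at -0.59 with Control replicate 1 dropped and -1.12 with Control replicate 3 dropped. None of the 3 calls was lost under any alternative that was tried.

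Per length, the 3 co-receptors together stood at 191, 219 and 258 TPM in PRC1 i2KO, against 644 and 575 TPM in Control, a mean 2.74-fold lower in PRC1 i2KO. Gas1 was the most abundant in every library. The share of Cdon in the sum was 5.27%, 7.65% and 5.39% in PRC1 i2KO, against 10.5% and 15.5% in Control, and that of Boc was 41.8%, 40.6% and 35.5% in PRC1 i2KO, against 32.9% and 25.5% in Control, with no overlap for either. The share of Gas1 overlapped between groups, at 51.7% to 59.1% in PRC1 i2KO and 56.7% and 58.9% in Control. Dermal fibroblasts also express co-receptors of this kind, and their markers were read in the same libraries. Of 6 tested, 4 fell and 1 rose (Dcn), beside 15.1% called lower and 18.8% higher among all genes tested. The summed level of all 12 overlapped between groups, at 91.1 to 110 CPM in PRC1 i2KO and 106 to 152 CPM in Control. Pdgfra, a defining marker, had 0.282 to 1.24 CPM in PRC1 i2KO, against 5.17 and 5.47 CPM in Control, and Col1a2, a collagen gene, had 23.4 to 26.8 CPM in PRC1 i2KO, against 60.2 and 57.2 CPM in Control. The sort on EpCAM selects epithelial cells, and the part of fibroblast RNA in the co-receptor results was not tested.

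**Figure D2:**
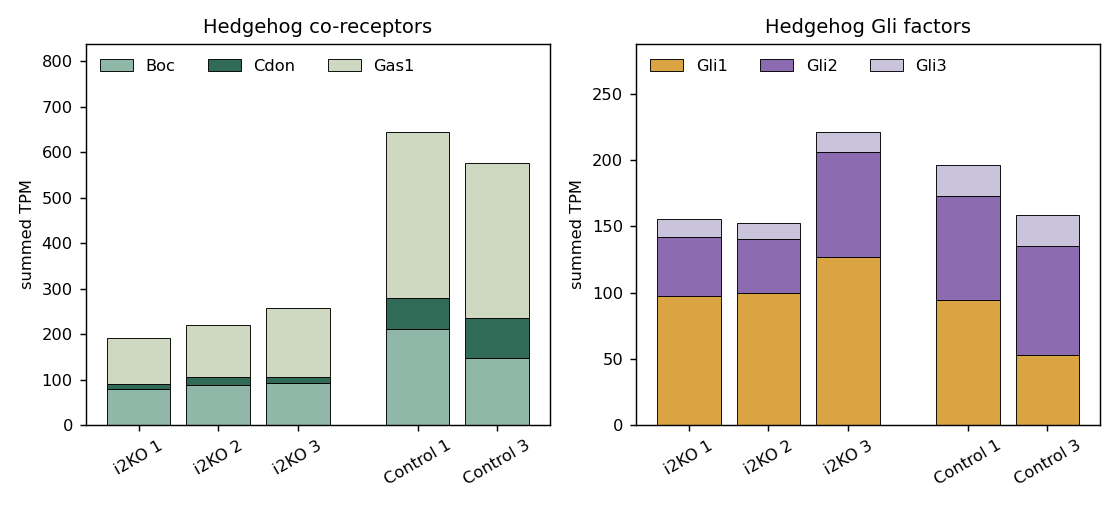
Stacked TPM of the co-receptor genes Boc, Cdon and Gas1 (left) and of Gli1, Gli2 and Gli3 (right) in each library, PRC1 i2KO libraries first, on linear axes from 0. The co-receptor sum is 191 to 258 TPM in PRC1 i2KO, against 575 to 644 TPM in Control, while the Gli sums overlap and Gli1 takes a larger part of them in PRC1 i2KO.

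The Gli factors did not move as 1 group. Gli1, an activator and the usual readout of the pathway, had 195, 208 and 255 CPM in PRC1 i2KO, against 169 and 99.2 CPM in Control. Each PRC1 i2KO library lay above both controls, but the controls were far apart. It did not pass in edgeR (log2 fold change 0.72, SE 0.25, adjusted p = 0.0697), while DESeq2 called it (0.00646). It was called without Control replicate 1 (1.15, edgeR adjusted p = 0.00143) and was 0.38 without Control replicate 3 (0.168), so the controls decide its size.

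Gli2 had 152, 146 and 285 CPM in PRC1 i2KO, against 251 and 260 CPM in Control. Replicates 1 and 2 of PRC1 i2KO lay below both controls and replicate 3 above them. The log2 fold change was -0.39 (SE 0.33, edgeR adjusted p = 0.426), but -0.78 and called without PRC1 i2KO replicate 3 (edgeR adjusted p = 2.83e-05). PRC1 i2KO replicate 3 also held the highest level of Cd34 in its group (37.2 CPM, beside 11.0 and 12.3 CPM). Of the 9 Hedgehog genes on CPM, replicate 3 was the highest PRC1 i2KO library for Gli1, Gli2, Hhip, Cdon and Gas1, and the lowest for Shh and Ptch1. On TPM, Cdon was instead highest in PRC1 i2KO replicate 2 (16.75, beside 13.92 in replicate 3), and Gli3 was highest in replicate 3 (15.05). A link between these orders and Cd34 was not tested.

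Gli3, the factor that acts mainly as a repressor, fell. It had 66.7, 55.3 and 55.6 CPM in PRC1 i2KO, against 93.5 and 98.7 CPM in Control. The groups were well apart and each was tight (log2 fold change -0.70, SE 0.12, edgeR adjusted p = 0.00135), with values between -0.65 and -0.78 when 1 library was left out.

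Summed per length, the 3 Gli genes gave 156, 153 and 221 TPM in PRC1 i2KO, against 197 and 159 TPM in Control. The sums overlapped, and their make-up did not. Gli1 made up 62.5%, 65.1% and 57.4% of the sum in PRC1 i2KO, against 47.9% and 33.1% in Control. Gli2 made up 26.6% to 35.8% in PRC1 i2KO and 39.8% and 51.9% in Control, and Gli3 6.8% to 8.75% in PRC1 i2KO and 12.2% and 15.0% in Control. The ratio of Gli3 to Gli2 was 0.304, 0.312 and 0.19 in PRC1 i2KO, against 0.307 and 0.289 in Control, so the groups overlapped. An exact two-sided permutation test gave p = 0.9, but 5 libraries allow no p under 0.1, so it could not call a difference. The ratio of Ptch1 to Gli1 was 0.415, 0.42 and 0.293 in PRC1 i2KO, against 0.313 and 0.556 in Control (exact permutation p = 0.9, with the same limit).

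**Figure D3:**
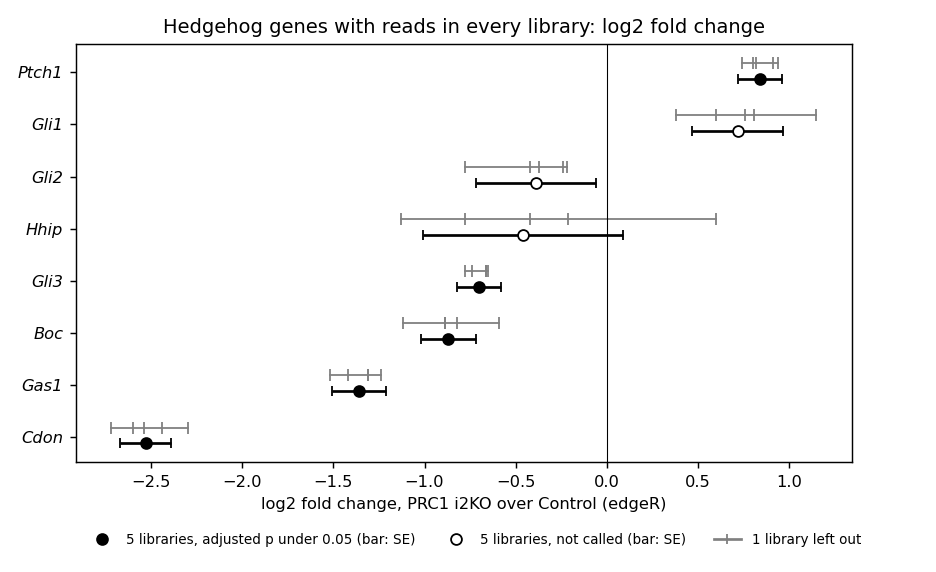
Log2 fold change of PRC1 i2KO over Control for the 8 Hedgehog genes other than Shh, which had 1 read over both controls, with the SE of the 5-library edgeR fit (black; filled where the adjusted p is under 0.05) and the values with 1 library left out (grey ticks). Cdon, Gas1, Boc, Gli3 and Ptch1 keep their side of 0, Gli1 runs from 0.38 to 1.15 and Hhip from -1.13 to 0.60.

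Ordered by level in TPM, the PRC1 i2KO libraries ran from Gas1 (122), Gli1 (108), Boc (87), Gli2 (54.8), Ptch1 (39.8), Gli3 (13.8) and Cdon (13.6) down to Shh (1.62) and Hhip (1.12). Neighbours whose ranges overlapped in PRC1 i2KO were Gas1 and Gli1, Gli2 and Ptch1, Gli3 and Cdon, and Shh and Hhip. In Control the order was Gas1 (352), Boc (179), Gli2 (80.4), Cdon (78.4), Gli1 (73.4), Ptch1 (29.4), Gli3 (23.9), Hhip (1.51) and Shh (0.04), and Gli2, Cdon and Gli1 overlapped. Gli1 thus had rank 2 in PRC1 i2KO and rank 5 in Control, and Cdon rank 7 in PRC1 i2KO and rank 4 in Control.

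Transcripts of genes whose proteins control Smoothened and the Gli factors were lower or not called. Of 28 tested, 9 fell and none rose (0 higher also by DESeq2 and at an unadjusted p under 0.05), with a median log2 fold change of -0.19. Among all genes tested, 15.1% were called lower and 18.8% higher. The central inhibitor gene Sufu, which holds Gli factors in the cytoplasm, averaged 35.9 CPM in PRC1 i2KO and 41.0 CPM in Control (adjusted p = 0.319). Kif7, a kinesin of the cilium that acts on Gli factors, stood at 27.4 and 35.9 CPM in the same groups (0.16). Numb, which promotes the destruction of Gli1, had 63.2, 70.1 and 76.2 CPM in PRC1 i2KO, against 129 and 151 CPM in Control (2.01-fold lower, edgeR adjusted p = 0.000173). Prkacb, a catalytic subunit of protein kinase A, which marks Gli factors for processing, fell (-0.72, edgeR adjusted p = 0.000451), whereas its partner Prkaca was at 50.0 CPM in PRC1 i2KO and 49.3 CPM in Control (0.933). Ulk3, a kinase that acts on Gli factors, fell too (-0.86, edgeR adjusted p = 0.000573). Evc, Evc2 and Iqce, which encode parts of a ciliary complex that carries the Smoothened signal, fell by 0.64, 0.34 and 0.76 on the log2 scale (edgeR adjusted p = 0.00588, 0.0355 and 0.00355), and Gpr161, a ciliary receptor that restrains the pathway, by 0.49 (0.0162). The call of Iqce was lost on TPM (limma adjusted p = 0.0663). Efcab7, of the same list, did not pass (edgeR adjusted p = 0.511). It had 5.18, 4.37 and 3 CPM in PRC1 i2KO, against 4.43 and 6 CPM in Control.

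The primary cilium, where Smoothened and the Gli factors are regulated, was covered by 39 genes, all tested. Of these 16 fell, 23 did not pass and none rose (0 higher also by DESeq2 and at an unadjusted p under 0.05), with a median log2 fold change of -0.40 beside -0.01 over all genes. Among all genes tested, 15.1% were called lower and 18.8% higher. Ift57, a subunit of the intraflagellar transport complex B, had 14.4, 15.6 and 18.1 CPM in PRC1 i2KO, against 50.0 and 44.8 CPM in Control (-1.56, SE 0.15, edgeR adjusted p = 6.4e-05). Wdr35, a subunit of complex A, had 20.8, 27.7 and 26.3 CPM in PRC1 i2KO, against 64.7 and 74.7 CPM in Control (-1.48, SE 0.15, edgeR adjusted p = 7.12e-05). Ift80, also of complex B, and Tctn1, a protein of the gate at the base of the cilium, fell by 0.87 and 0.72 on the log2 scale. Ift88, another subunit of complex B, did not pass (20.5 CPM in PRC1 i2KO and 17.6 CPM in Control, adjusted p = 0.376). Cells take their cilium down to divide, and the G2 and M genes given above were higher in the same libraries; their part in these falls was not tested.

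Genes listed as targets of Gli factors in one tissue or another moved in both directions. Of 19 listed, 14 were tested, 7 rose, 2 fell and 5 did not pass, beside 18.8% called higher and 15.1% lower among all genes tested. The median log2 fold change was 1.95 over the 14 and 1.58 over the 11 that averaged 1 CPM or more. Some of the least abundant genes, among them Foxe1, Snai1 and Hsd11b2, passed the filter through PRC1 i2KO alone, which favours a value above 0. The rises included Ccnd2, a D-type cyclin, with 462, 479 and 445 CPM in PRC1 i2KO, against 85.7 and 68.4 CPM in Control (2.59, SE 0.13, edgeR adjusted p = 1.14e-06). Cdk6, a partner of D-type cyclins, had 154, 136 and 107 CPM in PRC1 i2KO, against 43.9 and 44.6 CPM in Control (1.58, edgeR adjusted p = 6.69e-05). Foxm1, a factor of mitotic genes, had 42.6, 40.0 and 29.6 CPM in PRC1 i2KO, against 3.94 and 1.56 CPM in Control (3.98, edgeR adjusted p = 0.000233). Mycn and Ccnd1 rose as well (3.02 and 0.81, edgeR adjusted p = 0.00285 and 0.0249). These 5 genes act in cell growth and division, and the G2 and M genes were higher in the same libraries. The part of cell division in these rises was not tested. Sfrp1, a secreted inhibitor of WNT signalling, moved the other way, with 52.8, 63.7 and 96.5 CPM in PRC1 i2KO, against 1058 and 1044 CPM in Control (-3.88, SE 0.26, edgeR adjusted p = 0.000116), and Bcl2, an inhibitor of cell death, fell by 0.57 on the log2 scale (edgeR adjusted p = 0.00781). Foxl1, Nr2f1 and Osr1 had 0 reads in all libraries, and Jag2 averaged 663 CPM in PRC1 i2KO and 627 CPM in Control (0.683).

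Among all genes tested, 18.8% were called higher and 15.1% lower. Over all 103 other genes of these lists, 94 were tested, 10 rose and 29 fell, and the median log2 fold change was -0.28. With Control replicate 1 dropped 18 fell, with Control replicate 3 dropped 16 fell and 5 rose, and with PRC1 i2KO replicate 2 dropped 18 fell. Calls over all genes dropped in the same fits, to 1636, 1359 and 1599 lower in place of 2371, and to 1963 higher without Control replicate 3 in place of 2939.

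**Figure D4:**
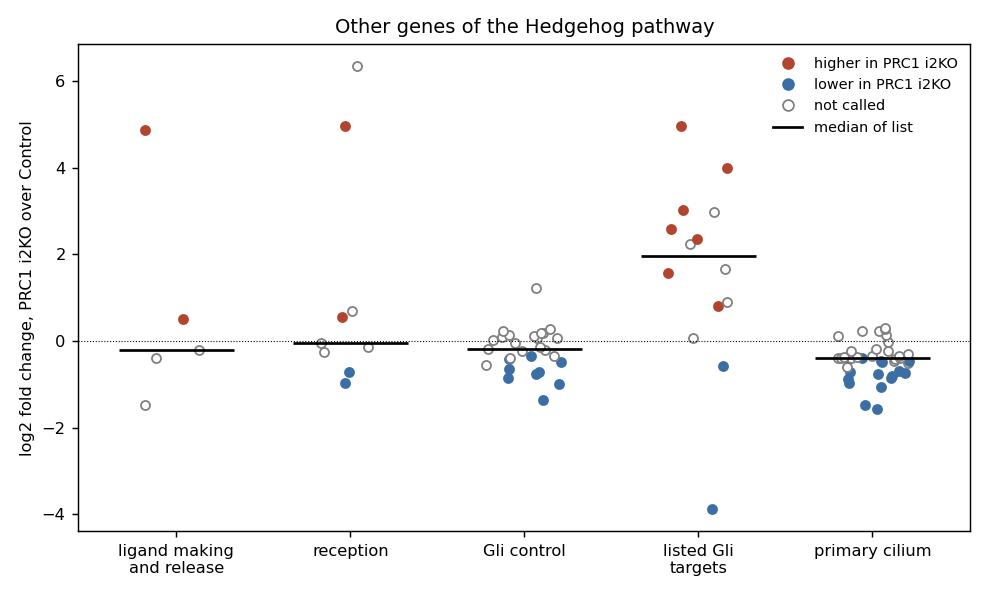
Log2 fold change of PRC1 i2KO over Control for every tested gene of the 5 other Hedgehog lists, red where called higher, blue where called lower and open where not called, with a line at each list's median. All called genes of Gli control and of the primary cilium lie below 0. Of the 14 tested genes listed as Gli targets, 12 lie above 0, of which 7 were called. Among the 12, Foxe1, Snai1 and Hsd11b2 passed the filter on low counts through PRC1 i2KO alone, which favours a value above 0. The median over all genes tested was -0.01.

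For each of the 9 genes, the genes with the most similar pattern over the 5 libraries were sought among 12359 genes that averaged 1 CPM or more, by the root mean square difference of log2 CPM after centring each gene. A prior count of 2 was added before the log, on which the distances of genes with few reads, such as Shh, depend. Genes named only by a number or clone (predicted gene models and the like) were left out of the search. The nearest to Ptch1 were Eef1g, Hsd17b10 and Rhbdl3 (differences of 0.0286, 0.0287 and 0.034). For Gli1 they were Ctss, Psmg4 and Tcte2 (0.0601, 0.0885 and 0.0924), and for Gli2 Rtn4rl1, Crocc and Crip1 (0.058, 0.0585 and 0.0931), which share its high value in PRC1 i2KO replicate 3. For Gli3 they were Dut, Zfp52 and Tmem67 (0.0184, 0.0319 and 0.0415), for Cdon Ppp1r3b, Flrt2 and Maf (0.108, 0.112 and 0.127), for Gas1 Tenm2, Whrn and Plekhf1 (0.047, 0.0524 and 0.0562) and for Boc Dlx2, Slc4a3 and Adnp2 (0.0728, 0.0798 and 0.0826). Shh lay nearest to Il2rg, Gjb2 and Ctsc (0.0993, 0.104 and 0.171), and Hhip, with the loosest matches, to Atp7b, Lca5l and Myl9 (0.153, 0.199 and 0.253).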

How the data were processed

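Polyadenylate-selected libraries of 50000 sorted cells each were deposited by the authors as 1 table, with expected counts (fractional for some genes) and TPM in a column per library. Per the submitters' processing notes, the build was mm39 and the tools included RSEM 1.3.3, STAR 2.7.9a and DESeq2 1.38.2, with no roles stated. No source used here gives the annotation or strandedness, so overlapping and antisense genes are uncertain. TPM keeps no depth. Rounded counts went into edgeR 4.0.16 under R 4.3.3 (filterByExpr, TMM, robust quasi-likelihood F test, genotype as the only term, all 5 libraries), with Benjamini-Hochberg adjustment over 15665 genes. CPM uses the same scaling, and the SE is the log2 fold change over the square root of F. DESeq2 1.42.0 and limma 3.58.1 on log2(TPM + 1) were alternatives. The fit was run on simulated counts with far fewer changed genes than were called here. Its error rate in these data was not tested. Pairs of libraries of 1 group differed by more than sampling noise (chi-square over its degrees of freedom, 9.8 to 39). The gene lists and members were chosen with earlier results of these data known. By rule the text names all 9 members, from each of 5 other pathway lists up to 4 called genes with the smallest adjusted p, Ring1 and Rnf2, and the 3 nearest patterns of each member. The first markers of the cell type lists are named only in part, and further genes are named after their values were seen. A gene that this rule would name is not reported here by itself and stays in the counts of its lists. Of the cell type lists not described elsewhere, 7 of 9 markers of the interfollicular epidermis, 2 of 5 of melanocytes, 1 of 3 of Merkel cells, 1 of 3 of immune cells and 1 of 4 of vessel and nerve sheath cells were called higher, and 1 melanocyte marker (Mitf) lower. Among all genes tested, 18.8% were called higher and 15.1% lower. Counting error is all that the interval and floor of Shh cover, as reads are not independent molecules.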

Additional observations from a re-analysis of the deposited data

How the results depend on the processing

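The calls of Gli3, Boc, Cdon and Gas1 held under all 14 alternatives. On the deposited TPM, the number of the 9 genes that rose was 0 with limma on log2(TPM + 1), 1 (Shh) on log2(TPM + 0.1) and 0 on log2(TPM + 1) without a filter, with 2 higher at an unadjusted p under 0.05 in each, and the adjusted p of Shh was 0.0522, 0.0408 and 0.068 in that order. With 1 library left out, 2 to 3 of the 9 genes rose and 4 to 5 fell. Hhip was the 1 gene whose direction changed, with values from -1.13 to 0.60 when single libraries were left out. Gli1 was also called with no filter on low counts (edgeR adjusted p = 9.46e-07); the cause was not tested. In the other Hedgehog lists, 19, 18 and 13 genes fell on the 3 TPM settings, in place of 29, and 6 rose on TPM without a filter, in place of 10; with 1 library left out 5 to 13 rose and 16 to 33 fell. The replicate numbers of the titles pair no samples by any label, and same-numbered libraries correlated little in their deviations from the group means (0.0737 and 0.115). With the replicate block, 2 of the 9 genes rose and 4 fell, 9 and 20 of the other lists did, and 4421 genes were called in all in place of 5310. Few reads limit Shh, and with 2 controls the values of Shh, Gli1, Hhip, Boc and Scube3 move with the control kept, for Shh from a fitted 4.42 without Control replicate 3 to 8.86 without Control replicate 1.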
